A study of Mus musculus with 18 samples.

Results

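Genes of T cells and cytotoxic lymphocytes were followed in colon RNA-seq libraries of WT mice and of *Cldn2*KO mice, which lack the tight junction protein claudin-2. The 10 members were taken as a list by symbol. They were *Cd3d*, *Cd3e*, *Cd3g*, *Cd8a*, *Itgae*, *Gzma*, *Gzmb*, *Ccl5*, *Nkg7* and *Cd7*, among 47729 genes in the table of read counts. All 10 passed the filter on low counts, which kept 16937 genes. Both genotypes were sampled as controls with a treatment label of Control, after recovery from DSS colitis (dextran sulfate sodium in the drinking water damages the epithelium), and after a single injection of the carcinogen azoxymethane (AOM, 10 mg/kg) with 3 cycles of 2.5% DSS (AOM/DSS, which gives tumours in an inflamed colon). Each of the 6 groups held 3 libraries, 18 in all. All mice were on a C57BL/6 background and *Cldn2*KO mice were bred with WT mice to give littermates, as the study's methods state, with mice matched for age and sex. The age itself is not given in the sources used here. The knockout is not described there as restricted to a cell type, and whole colon tissue was sequenced, so a level reflects every cell in the piece.

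The CD3 chains carry the signal of the T cell antigen receptor into the cell, and without them the receptor does not reach the surface. The CD8 coreceptor binds MHC class I. In the gut, lymphocytes that lie between epithelial cells often bear CD8 as a homodimer of its alpha chain and the integrin chain CD103, encoded by *Itgae*, which pairs with the beta-7 chain and binds E-cadherin. Cytotoxic T cells and NK cells store granzymes in granules and release them into target cells, where they cleave proteins and start cell death. In bulk tissue, fewer cells of a type and less RNA per cell cannot be told apart.

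Libraries held 17.6 M to 27.4 M counted reads, with a median of 19.6 M. *Cldn2* stood at 44.5 to 504 CPM (counts scaled to a library of 1 M reads, with TMM factors) in WT libraries and at 0.0555 to 0.557 CPM in *Cldn2*KO libraries. The posterior *Hox* gene *Hoxb13*, which marks the distal colon, stood at 0.0 to 0.502 CPM in 7 libraries, the 6 recovery libraries and WT control 2, and at 198 to 570.1 CPM in the other 11. The study describes recovery samples as distal colon, and the posterior *Hox* genes were near 0 there. *Xist* stood at 865 CPM or more in WT recovery 2 and 3, *Cldn2*KO recovery 2 and 3 and *Cldn2*KO AOM/DSS 2 and 3, and at 1.16 CPM or less elsewhere. *Xist* is transcribed from the inactive X chromosome of females, so the groups were not alike in it although the methods call the mice sex-matched. The study describes the recovery and AOM/DSS groups as 3 mice each, and nothing in the labels ties a library to a mouse, so p-values measure the spread between these libraries, which may be partly technical.

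The CD3 genes lie side by side on chromosome 9 (GRCm38, positions as in the count table). *Cd3g* (44969572 to 44980431, minus strand) and *Cd3d* (44981793 to 44987052, plus strand) point away from each other across 1361 bases. *Cd3e* (44998743 to 45009590, minus strand) follows 11690 bases after *Cd3d*. Granzyme A (*Gzma*, chromosome 13, 113093825 to 113100979, minus strand) and granzyme B (*Gzmb*, chromosome 14, 56258856 to 56262260, minus strand) are serine proteases of cytotoxic granules. *Gzmb* belongs to a cluster of similar granzyme genes, so reads could be shared with its relatives. The other members were *Cd8a* (chromosome 6, 71373427 to 71379173, plus strand), *Nkg7* (chromosome 7, 43437073 to 43438249, plus strand), and on chromosome 11 *Itgae* (73090583 to 73147446, plus strand), *Ccl5* (83525778 to 83530518, minus strand) and *Cd7* (121036747 to 121039418, minus strand). *Cd7* shares exon bases with *Gm11775* on the other strand, and its reads cannot be told apart from that gene's unless the counting used strand, which is not stated. No other member shared exon bases with another gene of the table.

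The upstream sequence of both granzymes and of the divergent CD3 pair is shown, since in both pairs each gene was the member most correlated with the other across the libraries. The 250 bases before each RefSeq start (GRCm38.p6, gene strand, 5′ to 3′) are printed in lower case, with capitals marking a match on either strand to TGTGGT (the core letters of RUNX factors) or GGTGTG (those of T-box factors). RefSeq promoter entries were found for 7 of the 10 members, not for *Itgae*, *Ccl5* and *Cd7*.
Gzma (chr13:113100982-113101231, minus strand): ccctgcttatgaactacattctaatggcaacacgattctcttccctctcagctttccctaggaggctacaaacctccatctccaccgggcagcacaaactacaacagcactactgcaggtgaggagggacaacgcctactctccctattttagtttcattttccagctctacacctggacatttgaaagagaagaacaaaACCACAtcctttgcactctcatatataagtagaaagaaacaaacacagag
Gzmb (chr14:56262335-56262584, minus strand): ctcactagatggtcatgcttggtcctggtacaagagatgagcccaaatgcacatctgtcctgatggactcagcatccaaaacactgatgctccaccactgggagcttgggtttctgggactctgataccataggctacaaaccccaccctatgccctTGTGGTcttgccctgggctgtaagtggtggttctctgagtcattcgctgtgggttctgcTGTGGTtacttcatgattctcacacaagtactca
Cd3d (chr9:44981536-44981785, plus strand): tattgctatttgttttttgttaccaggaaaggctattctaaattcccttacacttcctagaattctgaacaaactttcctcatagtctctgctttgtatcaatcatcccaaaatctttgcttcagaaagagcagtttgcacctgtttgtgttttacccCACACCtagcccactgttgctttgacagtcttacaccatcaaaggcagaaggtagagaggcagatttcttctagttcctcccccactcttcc
Cd3g (chr9:44980432-44980681, minus strand): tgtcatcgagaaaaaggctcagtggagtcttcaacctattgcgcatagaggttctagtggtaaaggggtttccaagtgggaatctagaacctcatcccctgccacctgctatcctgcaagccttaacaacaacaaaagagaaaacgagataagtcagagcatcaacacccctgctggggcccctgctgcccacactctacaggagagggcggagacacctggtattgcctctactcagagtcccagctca
TGTGGT was present in the windows of *Gzma*, *Gzmb* and *Nkg7*, 3 of the 7 members with an entry, and in 14% of 32851 promoters of the same length. In *Gzmb* it occurred at -93 to -88 and at -34 to -29 from the start. GGTGTG was present in *Cd3d* and *Nkg7*, 2 of 7, against 16.3% of all promoters. TGACG (a half-site of CRE-binding factors) was present in *Cd3e* only, 1 of 7, against 17.8%. CAGCTG (an E-box) and CCGGAA (an ETS core) were found in none of the 7, against 13% and 12%. A match describes letters only.

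Across all groups the members were rare transcripts, and their levels spanned a wide range between libraries. WT DSS recovery had the highest median of the 3 libraries for 9 of 10 members, and *Cldn2*KO recovery had it for *Cd7*. *Cldn2*KO controls had the lowest median for 10 of 10. The reads of all 10 members together numbered 56 to 192 in a *Cldn2*KO control library, 378 to 2907 in a WT control, 700 to 2996 in a recovery library and 234 to 513 in an AOM/DSS library. Counting error was therefore largest in the *Cldn2*KO controls, where *Gzma* had 12 reads in the whole group and *Cd3e* had 8. Within groups a single library often stood apart. WT control 2 was the highest WT control for 10 of 10 members, between 3.2 times (*Itgae*) and 29.1 times (*Gzma*) the next one. WT recovery 2 was the highest of its group for 10 of 10, between 1.23 times (*Itgae*) and 3.75 times (*Cd3g*) the next. *Cldn2*KO control 2 was the lowest of all 18 libraries for 10 of 10.

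**Figure D1:**
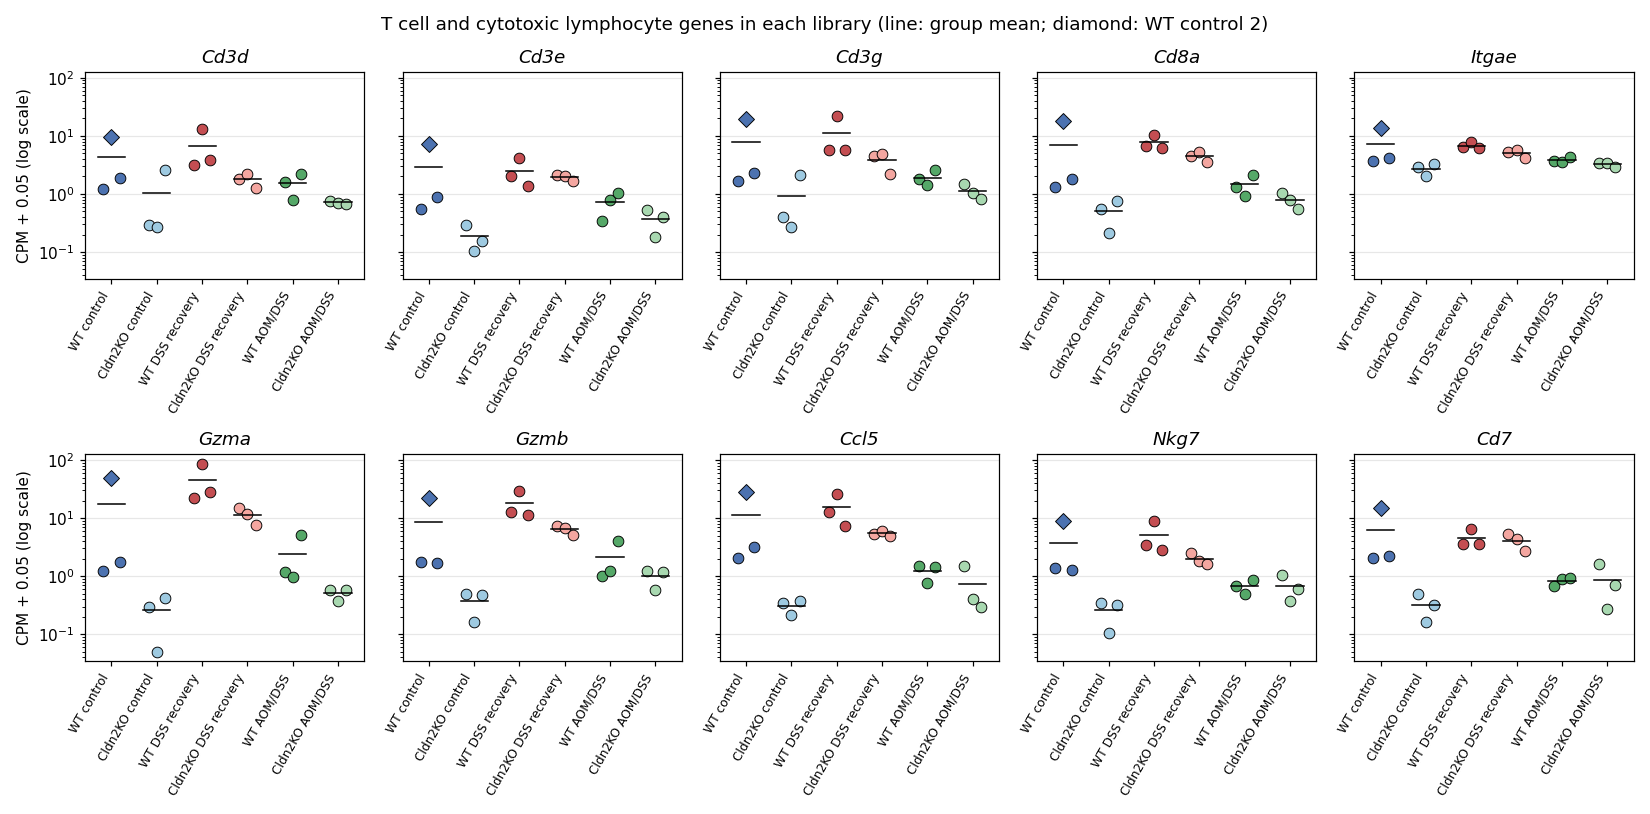
Level of each member in each of the 18 libraries, as CPM + 0.05 on a log axis, with 3 points per group in replicate order and a line at the group mean. WT control 2 (diamond) lies far above the other WT controls in every panel, the recovery libraries lie high, and the *Cldn2*KO controls have the lowest median of any group in every panel, with 1 higher library in *Cd3d* and *Cd3g*.

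Setting control *Cldn2*KO against control WT colon asks whether loss of claudin-2 alone changes these genes. Of the cytotoxic members, *Ccl5*, *Gzmb* and *Nkg7* were called lower in the knockout, and *Gzma* was not. *Ccl5*, a chemokine that draws T cells and is made by activated cytotoxic cells, stood at 2.01, 28.2 and 3.13 CPM in WT controls and at 0.296, 0.166 and 0.323 CPM in *Cldn2*KO controls. All knockout values were below all WT values. Its log2 fold change was -5.36 (SE 1.03, edgeR adjusted p 0.0208). *Gzmb* stood at 1.69, 22.1 and 1.65 CPM in WT and at 0.444, 0.111 and 0.431 CPM in the knockout (log2 fold change -4.64, SE 1.03, edgeR adjusted p 0.0398). The groups did not overlap, and the WT values again held 1 high library. *Nkg7*, which encodes a membrane protein of cytotoxic granules, stood at 1.34, 8.71 and 1.21 CPM against 0.296, 0.0555 and 0.269 CPM (log2 fold change -4.11, SE 0.84, edgeR adjusted p 0.0266). It too did not overlap between genotypes. *Gzma* had the largest fitted difference and the largest error. It stood at 1.18, 49.4 and 1.70 CPM in WT and at 0.246, 0.0 and 0.377 CPM in the knockout, where 0 reads in *Cldn2*KO control 2 allow up to 0.166 CPM (3 reads, counting error only). The log2 fold change of -6.33 (SE 1.48) missed the threshold with an edgeR adjusted p of 0.054. Without WT control 2 the *Gzma* difference was -2.75 (SE 0.96), smaller than those of *Ccl5* (-3.28) and *Cd7* (-2.93).

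Among the T cell surface genes, *Cd7*, an immunoglobulin-family protein of T and NK cells, stood at 2.04, 14.7 and 2.19 CPM in WT controls and at 0.444, 0.111 and 0.269 CPM in *Cldn2*KO controls. The values did not overlap (log2 fold change -4.46, SE 0.86, edgeR adjusted p 0.0202). *Cd8a* stood at 1.26, 17.7 and 1.75 CPM against 0.493, 0.166 and 0.700 CPM (log2 fold change -3.89, SE 0.86, edgeR adjusted p 0.0369). *Cd3e*, the epsilon chain, stood at 0.511, 7.27 and 0.823 CPM against 0.246, 0.0555 and 0.108 CPM (log2 fold change -4.28, SE 0.99, edgeR adjusted p 0.0473). Neither overlapped. *Itgae* was the most even member, at 3.66, 13.4 and 4.17 CPM in WT and at 2.81, 2.0 and 3.23 CPM in the knockout, and its difference was not called (log2 fold change -1.39, SE 0.39, edgeR adjusted p 0.107). *Cd3d* and *Cd3g* overlapped between genotypes. *Cd3d* stood at 1.18, 9.62 and 1.86 CPM against 0.246, 0.222 and 2.53 CPM, and *Cd3g* at 1.65, 19.3 and 2.25 CPM against 0.345, 0.222 and 2.10 CPM. *Cldn2*KO control 3 lay above WT controls 1 and 3 for *Cd3d* and between them for *Cd3g*, but below both for *Cd3e*.

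In all, 6 of 10 members were called lower in *Cldn2*KO controls, against 1.05% of all genes tested. The median log2 fold change was -4.20 over the members and -0.01 over all genes, and 8 of 10 members had groups that did not overlap, against 10.7% of genes lower in every knockout library. Marker lists of other cells differed in the same comparison. Leukocyte markers summed to 14.04 to 99.3 CPM in *Cldn2*KO controls against 47.6 to 180.9 CPM in WT controls, mast cell markers to 13.9 to 16.3 against 19.3 to 27.0 CPM and epithelial markers to 11680 to 13837 against 15570 to 15804 CPM, with 0 called in each list. Plasma cell markers summed to 252 to 437 CPM in *Cldn2*KO controls against 1653 to 1924 CPM in WT controls, with 2 of 4 called lower, and macrophage markers to 25.5 to 60.4 CPM against 59.1 to 68.1 CPM, with 5 of 5 lower and 0 called. B cell markers (1.83 to 74.8 against 6.92 to 59.0 CPM) and lymphoid follicle markers (2.61 to 59.8 against 6.76 to 51.1 CPM) overlapped, and both were highest in the knockout in *Cldn2*KO control 3. Smooth muscle markers stood at 6285 to 8359 CPM in the knockout and 3200 to 4792 CPM in WT. The part of these in the result was not tested. Without WT control 2, the library that lacks posterior *Hox* expression, 10 of 10 members were still lower in the knockout, but 2 were called (*Ccl5*, log2 fold change -3.28, and *Cd7*, -2.93), against 1.05% of genes, and the median over the members was -2.28. The count was 0 without *Cldn2*KO control 1 (against 0.132% of genes), 0 without *Cldn2*KO control 2 (0.265%) and 2 without *Cldn2*KO control 3 (1.57%). It was also 0 when only these groups were fitted (0.753%), 2 with a covariate for *Hoxb13* under 10 CPM (1.03%) and 2 without the filter on low counts (0.504%).

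After recovery from DSS colitis, all 10 members had lower fitted levels in *Cldn2*KO than in WT colon, but edgeR called none. In WT recovery *Gzma* stood at 22.1, 87.1 and 28.6 CPM, against 14.8, 11.6 and 7.53 CPM in *Cldn2*KO recovery. The groups did not overlap, and its log2 fold change was -2.02 (SE 1.08, edgeR adjusted p 0.316). *Gzmb* stood at 12.5, 29.8 and 11.1 CPM against 7.28, 6.82 and 5.07 CPM, and *Ccl5* at 12.6, 26.1 and 7.16 CPM against 5.35, 5.94 and 4.92 CPM. In both the lowest WT library was above the highest knockout library. *Cd3d* stood at 3.05, 12.8 and 3.73 CPM against 1.77, 2.18 and 1.23 CPM and had the lowest p (log2 fold change -1.91, SE 0.88, edgeR adjusted p 0.24). *Cd3e* and *Cd7* overlapped, with *Cd7* at 3.50, 6.46 and 3.49 CPM against 5.25, 4.27 and 2.66 CPM. Over the members, 8 of 10 had all knockout values below all WT values, against 11.7% of genes. edgeR called 0 of 10, against 0.974% of genes called in either direction, with 1 member at an unadjusted p under 0.05. DESeq2 called 0, and limma-voom with sample weights called 1 lower (*Gzma*), against 5.75% of genes. The median log2 fold change was -1.43 over the members and 0.00 over all genes. Across the alternative fits, those with a library left out among them, *Cd3d* ran from -2.26 to -0.99 and *Gzma* from -2.36 to -1.19. All 6 libraries lacked posterior *Hox* expression, so this comparison did not mix libraries that differ in it. Plasma cell markers summed to 474 to 628 CPM in WT and 290.0 to 379 CPM in the knockout, and leukocyte markers to 36.7 to 75.0 against 26.8 to 36.3 CPM. Their part in these values was not tested.

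In AOM/DSS colon no member was called between the genotypes. *Gzma* stood at 1.11, 0.919 and 5.11 CPM in WT and at 0.523, 0.325 and 0.528 CPM in *Cldn2*KO, without overlap (log2 fold change -2.37, SE 1.27, edgeR adjusted p 0.871). Across the alternative fits, those with a library left out among them, this fold change ran from -2.77 to -1.15. *Gzmb* stood at 0.968, 1.18 and 4.02 CPM against 1.19, 0.519 and 1.13 CPM, and *Nkg7* at 0.629, 0.438 and 0.804 CPM against 0.998, 0.325 and 0.564 CPM. Both overlapped. *Cd3d* (1.55, 0.744 and 2.13 against 0.713, 0.649 and 0.634 CPM) and *Itgae* (3.68, 3.50 and 4.35 against 3.38, 3.34 and 2.85 CPM) did not, so that 3 of 10 members were lower in every knockout library, against 6.38% of genes. WT AOM/DSS 3 was the highest of its group for both granzymes, and it also held the most neutrophil marker RNA, 320.1 CPM where its fellow libraries had 2.61 and 14.1 CPM. Leukocyte markers summed to 33.7 to 45.2 CPM in the knockout against 78.8 to 111.4 CPM in WT, B cell markers to 2.99 to 20.8 against 37.5 to 57.6 CPM and follicle markers to 3.99 to 18.1 against 37.0 to 41.2 CPM, with none of these markers called. Their part was not tested. The WT libraries had *Xist* near 0 and 2 of the 3 knockout libraries had it high, so genotype and sex were not balanced here. edgeR called 0 of 10 members, against 0.0059% of genes, with 0 at an unadjusted p under 0.05, and DESeq2 and limma-voom also called 0. The median log2 fold change was -0.87, between -2.37 for *Gzma* and 0.03 for *Cd7*.

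Averaged over the 3 treatments, 4 of 10 members were called lower in *Cldn2*KO, against 1.21% of genes, and 10 of 10 had lower fitted levels (median log2 fold change -1.85, against 0.00 over all genes). Those called were the cytotoxic members *Gzma* (log2 fold change -3.57, SE 0.74, edgeR adjusted p 0.0264), *Ccl5* (-2.55, SE 0.53, edgeR adjusted p 0.0241), *Gzmb* (-2.42, SE 0.53, edgeR adjusted p 0.0348) and *Nkg7* (-1.84, SE 0.44, edgeR adjusted p 0.0499). *Cd8a* was just outside, at -1.87 (SE 0.46, edgeR adjusted p 0.0535), and the CD3 genes lay between -1.70 and -1.92 with edgeR adjusted p from 0.0753 to 0.112. *Itgae* had the smallest difference, -0.69 (SE 0.22), and *Cd7* stood at -1.52 (SE 0.44). Without WT control 2 the count was 5, with *Cd8a* added, against 1.67% of genes. It was 0 without WT recovery 2, WT AOM/DSS 3, *Cldn2*KO control 1 or 2, *Cldn2*KO recovery 2, or *Cldn2*KO AOM/DSS 2 or 3 (against 0.559% to 0.872% of genes), 1 without *Cldn2*KO AOM/DSS 1 (0.84%), and 2 without WT recovery 1 (0.814%). With a covariate for *Xist* over 100 CPM it was 1 (0.762%), and without the filter on low counts 0 (0.511%). In each treatment the median leukocyte marker sum was lower in *Cldn2*KO. It was 17.4 against 119.1 CPM in controls, 35.7 against 39.0 in recovery and 38.7 against 92.3 in AOM/DSS. Plasma cell and macrophage medians were also lower in each treatment, and smooth muscle medians were higher. Those of B cells, follicles, neutrophils, mast cells and epithelium were mixed. Their part was not tested.

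**Figure D2:**
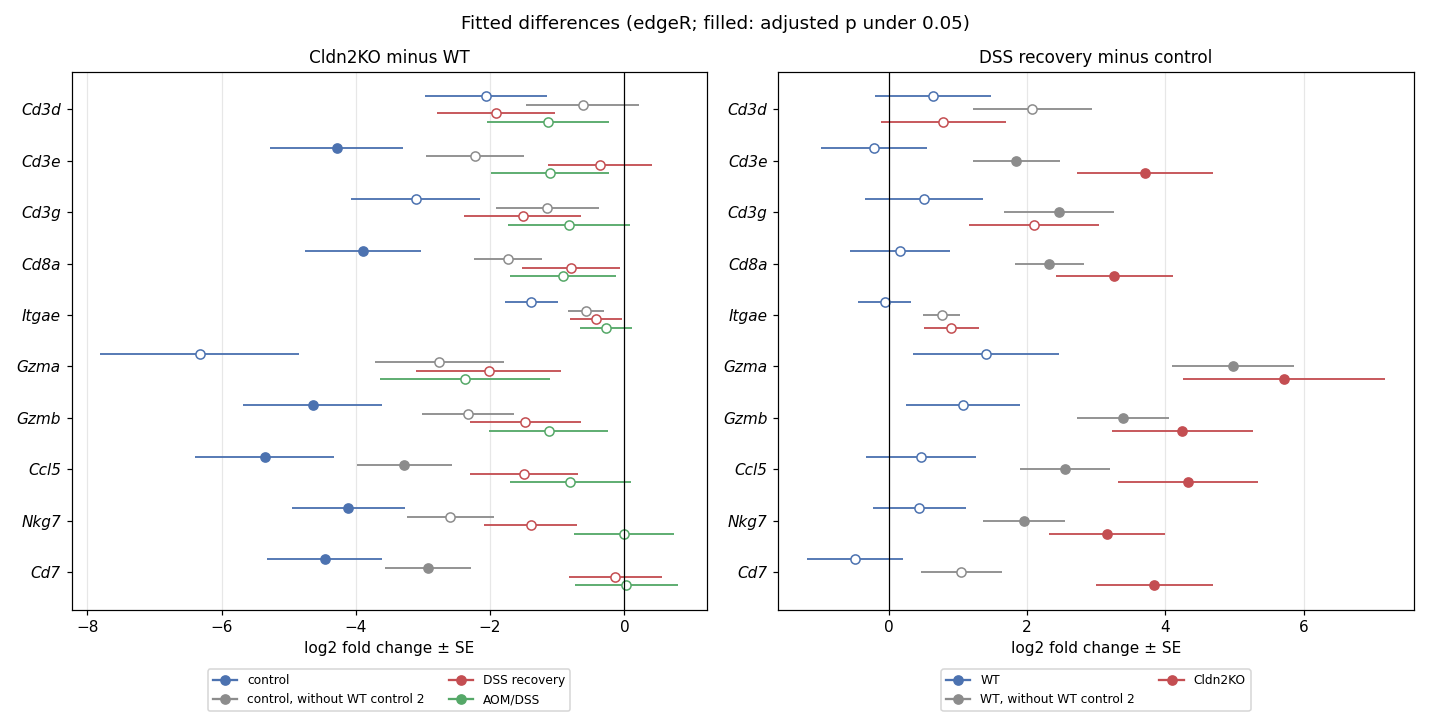
Fitted log2 fold changes with standard errors for the 10 members, knockout minus WT in each treatment (left) and DSS recovery minus control in each genotype (right), with filled points for adjusted p under 0.05. Leaving out WT control 2 (grey) brings the control difference nearer to 0 and moves the WT recovery difference to higher values, with *Gzma* at 4.97 in place of 1.40.

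Recovery was compared with control within each genotype, which asks how the colon differs once DSS has been withdrawn. In *Cldn2*KO, 7 of 10 members were higher in recovery, against 9.43% of genes called higher. *Gzma* rose from 0.246, 0.0 and 0.377 CPM to 14.8, 11.6 and 7.53 CPM (log2 fold change 5.71, SE 1.46, edgeR adjusted p 0.014). *Ccl5* rose to 5.35, 5.94 and 4.92 CPM (log2 fold change 4.33, SE 1.01, edgeR adjusted p 0.00843). *Gzmb* rose to 7.28, 6.82 and 5.07 CPM (log2 fold change 4.24, SE 1.02, edgeR adjusted p 0.00983). The lowest recovery value was above the highest control value in each of these. *Nkg7* rose to 2.41, 1.76 and 1.57 CPM (log2 fold change 3.16, SE 0.84, edgeR adjusted p 0.0156). *Cd7* rose to 5.25, 4.27 and 2.66 CPM (log2 fold change 3.84, SE 0.84, edgeR adjusted p 0.00566). Of the receptor genes, *Cd8a* rose to 4.50, 5.24 and 3.49 CPM (log2 fold change 3.26, SE 0.85, edgeR adjusted p 0.0143). *Cd3e* rose to 2.09, 1.95 and 1.62 CPM (log2 fold change 3.70, SE 0.99, edgeR adjusted p 0.0161). These values also lay above those of all 3 controls.

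*Cd3d*, *Cd3g* and *Itgae* were not called in that comparison. *Cd3g*, at 4.44, 4.87 and 2.17 CPM after recovery, lay just above the 2.10 CPM of *Cldn2*KO control 3, with a difference of 2.10 on the log2 scale (SE 0.94, edgeR adjusted p 0.134). *Cd3d* overlapped, and its log2 fold change was 0.79 (SE 0.90, edgeR adjusted p 0.591). *Itgae* stood at 5.14, 5.75 and 4.18 CPM, without overlap and with a small difference (log2 fold change 0.91, SE 0.39, edgeR adjusted p 0.121). In all, 9 of 10 members did not overlap, against 19.9% of genes higher in every recovery library. The median log2 fold change was 3.48 over the members and 0.00 over all genes. Markers of other cells differed in both directions. Neutrophil markers summed to 2.84 to 20.97 CPM in recovery against 0.197 to 0.538 CPM in controls, with 2 of 3 called higher, and mast cell markers to 34.8 to 53.7 against 13.9 to 16.3 CPM, with 1 of 4 called higher. Macrophage markers summed to 9.19 to 18.6 against 25.5 to 60.4 CPM, with 3 of 5 called lower, smooth muscle markers had 5 of 5 called lower, and plasma cell markers 2 of 4. B cell markers stood at 0.964 to 3.25 against 1.83 to 74.8 CPM, with 0 of 4 called. The part of these in the result was not tested. Every recovery library lacked posterior *Hox* expression and every *Cldn2*KO control had it, so recovery and that state cannot be told apart here. Without *Cldn2*KO control 2, 3 of 10 members were called, against 5.5% of genes.

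In WT colon, edgeR called 0 of 10 members between recovery and control, against 22.2% of genes called in either direction, with 0 at an unadjusted p under 0.05. DESeq2 called 0, and limma-voom with sample weights, which gives a library that stands apart less weight, called 9 higher, against 23.1% of genes. *Gzma* stood at 22.1, 87.1 and 28.6 CPM in recovery against 1.18, 49.4 and 1.70 CPM in control (log2 fold change 1.40, SE 1.06, edgeR adjusted p 0.365). All 3 recovery libraries were above WT controls 1 and 3, and 2 of them were below WT control 2. The same held for *Gzmb*, whose recovery values of 12.5, 29.8 and 11.1 CPM lay around the 22.1 CPM of WT control 2. *Cd8a* stood at 6.76, 10.2 and 6.03 CPM in recovery, all under the 17.7 CPM of that library, and *Cd7* at 3.50, 6.46 and 3.49 CPM, all under its 14.7 CPM. Without WT control 2, 7 of 10 members were called higher in recovery (*Cd3e*, *Cd3g*, *Cd8a*, *Gzma*, *Gzmb*, *Ccl5* and *Nkg7*), against 11.8% of genes, with log2 fold changes up to 4.97 for *Gzma* (SE 0.88, edgeR adjusted p 0.00102). The median log2 fold change over the members was 0.45 with that library, against -0.04 over all genes, and 2.20 without it. Between the same groups macrophage markers summed to 12.8 to 17.4 against 59.1 to 68.1 CPM (4 of 5 called lower), plasma cell markers to 474 to 628 against 1653 to 1924 CPM (3 of 4), smooth muscle markers to 615 to 1765 against 3200 to 4792 CPM (3 of 5) and epithelial markers to 8882 to 12876 against 15570 to 15804 CPM (4 of 7), and 5 of 6 follicle markers were called lower. Neutrophil markers summed to 2.30 to 7.16 against 0.327 to 2.14 CPM (0 of 3 called) and mast cell markers to 27.4 to 47.1 against 19.3 to 27.0 CPM (1 of 4 called higher). The part of these in the result was not tested. Among the libraries that lack posterior *Hox* expression, WT control 2 was the only control. Without it, recovery and that state cannot be told apart in WT colon either.

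AOM/DSS colon was compared with control in the same way. In WT, 3 of 10 members were called lower, against 6.58% of genes. *Cd7* stood at 0.629, 0.832 and 0.899 CPM in AOM/DSS against 2.04, 14.7 and 2.19 CPM in control (log2 fold change -2.98, SE 0.76, edgeR adjusted p 0.0288). *Ccl5* stood at 1.45, 0.700 and 1.37 CPM against 2.01, 28.2 and 3.13 CPM (log2 fold change -3.23, SE 0.88, edgeR adjusted p 0.0356). *Nkg7* stood at 0.629, 0.438 and 0.804 CPM against 1.34, 8.71 and 1.21 CPM (log2 fold change -2.56, SE 0.74, edgeR adjusted p 0.0413). In these 3 members all AOM/DSS values were below all control values, a pattern held by 17.3% of genes, and the median log2 fold change was -2.16 over the members and 0.01 over all genes. Epithelial markers summed to 8648 to 10313 CPM in AOM/DSS against 15570 to 15804 CPM in control (3 of 7 called lower), smooth muscle markers to 460.3 to 2500 against 3200 to 4792 CPM (2 of 5 called lower) and plasma cell markers to 644 to 977 against 1653 to 1924 CPM (0 of 4 called). Neutrophil markers had 3 of 3 called higher, and mast cell markers summed to 29.9 to 71.2 against 19.3 to 27.0 CPM (0 of 4 called). The part of these in the result was not tested. The count varied with the libraries: 4 members were called without WT control 1 (against 4.84% of genes), 4 without WT control 3 (7.13%), 0 without WT control 2 (1.61%), where the median log2 fold change over the members was -0.07, and 0 without WT AOM/DSS 1, 2 or 3 (against 3.97%, 5.77% and 0.733%). In *Cldn2*KO, edgeR called 0 of 10 members in AOM/DSS, against 0.195% of genes, with 0 at an unadjusted p under 0.05, and DESeq2 and limma-voom called 0. *Nkg7* and *Gzmb* were above the controls in all 3 *Cldn2*KO AOM/DSS libraries, as were 15% of genes, with *Nkg7* at 0.998, 0.325 and 0.564 CPM and *Gzmb* at 1.19, 0.519 and 1.13 CPM. WT and *Cldn2*KO AOM/DSS libraries all expressed posterior *Hox* genes.

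Whether the response differed between genotypes was tested as an interaction. For recovery, edgeR called 0 of 10 members, against 0.13% of genes, with 7 at an unadjusted p under 0.05. The lowest adjusted p was that of *Cd7*, whose response was higher in *Cldn2*KO by 4.32 on the log2 scale (SE 1.09, edgeR adjusted p 0.0821). DESeq2 called 3 (*Cd8a*, *Ccl5* and *Cd7*), against 2.98% of genes called higher, and limma-voom called 2 (*Ccl5* and *Cd7*), against 5.73%. For AOM/DSS, edgeR called 0 of 10, against 0.0118% of genes, with 6 at an unadjusted p under 0.05, limma-voom called 0, and DESeq2 called 3 (*Nkg7*, *Ccl5* and *Cd7*), against 0.455% of genes. Both tests use the WT controls. Without WT control 2, edgeR again called 0 in both, and the members at an unadjusted p under 0.05 numbered 1 for recovery and 3 for AOM/DSS. Counts at an unadjusted p are no calls, and the share of all genes under it is not given here.

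The balance within the list also varied between libraries. The summed CPM of *Gzma*, *Gzmb*, *Nkg7* and *Ccl5* was divided by that of the 3 CD3 genes, a ratio chosen after the values were seen and given without a test. It was 2.90 to 4.73 in the 7 libraries without posterior *Hox* expression and 0.295 to 2.01 in the other 11. In WT controls it was 1.86, 2.99 and 1.56, and in *Cldn2*KO controls 1.53, 0.667 and 0.295. WT control 2 therefore lay with the recovery libraries, and *Cldn2*KO control 3 had CD3 reads with few cytotoxic reads. In WT recovery the ratio was 4.73, 3.95 and 4.62, above the 3.59, 2.90 and 3.80 of *Cldn2*KO recovery in every library. Per kilobase of exon, the highest mean level in WT recovery was that of *Gzma* (52.3 CPM per kb) and the next was that of *Ccl5* (15.9).

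**Figure D3:**
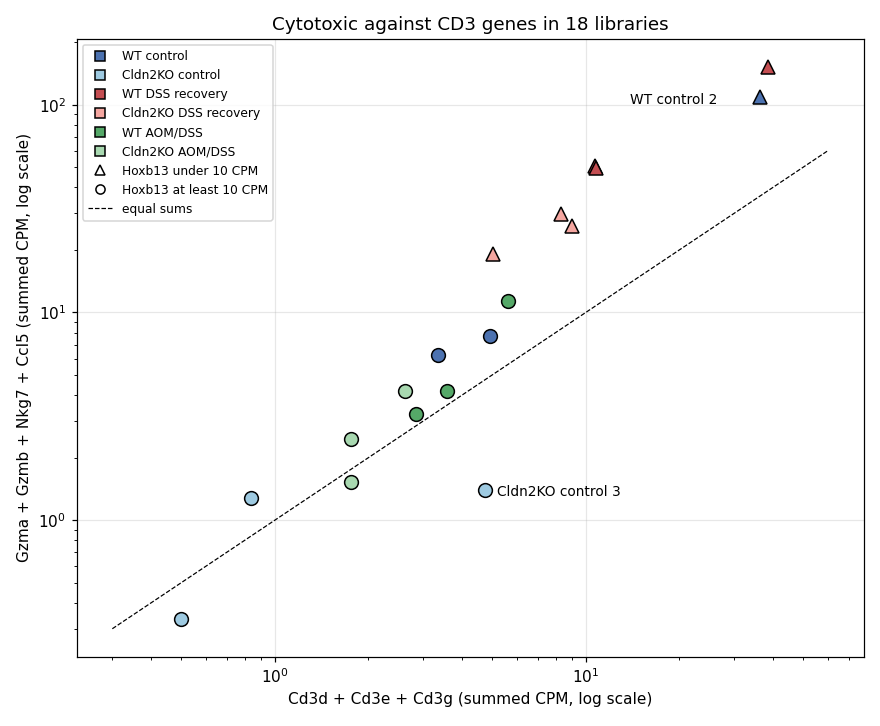
Summed CPM of 4 cytotoxic genes (y axis, log) against summed CPM of the 3 CD3 genes (x axis, log) in 18 libraries, coloured by group, with triangles for libraries with *Hoxb13* under 10 CPM and a dashed line at equal sums. The 7 triangles, WT control 2 among them, lie well above the line at ratios of 2.90 to 4.73, and *Cldn2*KO control 3 lies farthest below it at 0.295.

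Across the 18 libraries the members followed each other, as a description over libraries that share depth, group and tissue position. The correlation of log2 CPM was highest for *Gzma* and *Gzmb* (Pearson r 0.991) and for *Gzma* and *Cd8a* (0.98), and *Cd3d* with *Cd3g* came to 0.97. It was lowest for *Cd3d* with *Cd7* (0.762) and with *Cd3e* (0.783). Of genes outside the list with a mean of at least 1 CPM, the 8 most alike to the mean of the members had r from 0.937 to 0.974. They were *Apol7e*, *Ctsw* (cathepsin W, a protease of cytotoxic cells), *Cd96*, *Klrd1* (CD94, a receptor chain of NK and T cells), *Lck* (the kinase that phosphorylates CD3 chains), *Cd160*, *Snx20* and *Adgrg5*. *Ctsw* stood at 1.93, 11.7 and 2.19 CPM in WT controls, 0.197, 0.333 and 0.592 CPM in *Cldn2*KO controls, 3.22, 11.3 and 4.55 CPM in WT recovery and 4.18, 4.45 and 2.76 CPM in *Cldn2*KO recovery. It was lower in *Cldn2*KO than WT controls (log2 fold change -3.79, SE 0.76, edgeR adjusted p 0.0241).

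The constant regions of the antigen receptor were also counted. *Trac*, the constant region of the alpha chain, stood at 1.02, 6.61 and 2.08 CPM in WT controls, against 0.0986, 0.166 and 0.969 CPM in *Cldn2*KO controls. After recovery it stood at 2.12, 2.80 and 1.83 CPM in WT mice, against 1.23, 1.16 and 1.18 CPM in *Cldn2*KO mice. It was called in none of the 10 comparisons by edgeR. *Trdc*, the constant region of the delta chain, reached 3.21 CPM in WT control 2 and 2.87 CPM in WT recovery 2 and was at most 1.35 CPM in the other libraries. Of the gamma chain constant regions, *Tcrg-C2* was lower in *Cldn2*KO than WT controls (1.49, 10.9 and 1.32 against 0.493, 0.277 and 0.323 CPM, log2 fold change -3.60, edgeR adjusted p 0.0452). It was higher in *Cldn2*KO recovery than control (2.89, 4.64 and 1.87 CPM, log2 fold change 3.08). *Tcrg-C4* rose in the second comparison too (log2 fold change 2.78). *Tcrg-C1* and *Tcrg-C2* are near-identical copies, as are *Trbc1* and *Trbc2*, and how reads that fit several copies were counted is not stated, so each is uncertain.

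A wider list of other T cell, subset and cytotoxic genes (receptor signalling, coreceptors and subsets, granules and NK receptors) held 86 genes, of which 75 were tested. In *Cldn2*KO against WT controls, 5 (6.67%, against 1.05% of all genes) were called lower and 0 higher, namely *Ctsw*, *Cd6* (log2 fold change -3.72), *Tcrg-C2*, *Cd28* (-3.19) and *Gpr55*. The median of the 75 was -2.14, and *Cd28* is the costimulatory receptor of T cells. In *Cldn2*KO recovery against control, 12 (16%, against 9.43%) were called higher and 1 lower (*Tyrobp*, an adaptor of NK and myeloid cells), with a median of 1.12. The largest were *Fasl*, a death ligand of cytotoxic cells (log2 fold change 4.46), *Ccl4*, a chemokine (4.31), *Klre1* (3.44) and *Ctsw* (3.33). In WT recovery against control, 5 (6.67%, under the 12.2% of all genes called lower) were called lower, led by *Icos* (log2 fold change -2.60), *Cd28* (-1.98), the helper T cell coreceptor *Cd4* (-1.96) and *Gpr55* (-1.29), and 0 higher. *Cd4* stood at 1.02, 1.57 and 1.70 CPM in WT controls and at 0.366, 0.359 and 0.355 CPM in WT recovery. In WT AOM/DSS against control, 3 (4.0%, under the 6.58% of all genes) were called lower, with the largest changes in *Tcrg-C4* (-3.08) and *Tcrg-C2* (-2.59), and in *Cldn2*KO AOM/DSS 1 (1.33%, against 0.0768%) was higher (*Gpr55*, 2.07). Averaged over treatments 6 (8.0%, against 1.21%) were lower in *Cldn2*KO, with *Ccl4* (-2.77), *Cd6* (-2.15), *Tcrg-C2* (-1.87) and *Cd247* (-1.76) largest. For *Cldn2*KO against WT in recovery and in AOM/DSS, edgeR called 0 of 75, against 0.974% and 0.0059% of genes, and DESeq2 and limma-voom called 0 in both. At an unadjusted p under 0.05 in edgeR stood 9 and 5, with no share of all genes given.

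NK cell markers were measured at low levels. *Ncr1*, which encodes NKp46, reached at most 0.494 CPM and was at 0 in 5 libraries, *Eomes* reached at most 1.43 CPM and *Klrb1c* at most 1.31 CPM. *Klrd1*, which T cells also express, reached 15.6 CPM in WT recovery 2 and carried most of the summed NK list. The marker lists were not uniform in the libraries with most member RNA. B cell markers summed to 58.6 CPM in WT control 2 and to 6.31 CPM in WT recovery 2, and lymphoid follicle markers to 49.2 and 8.68 CPM, while the 10 members summed to 190.3 and 214.9 CPM.

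**Figure D4:**
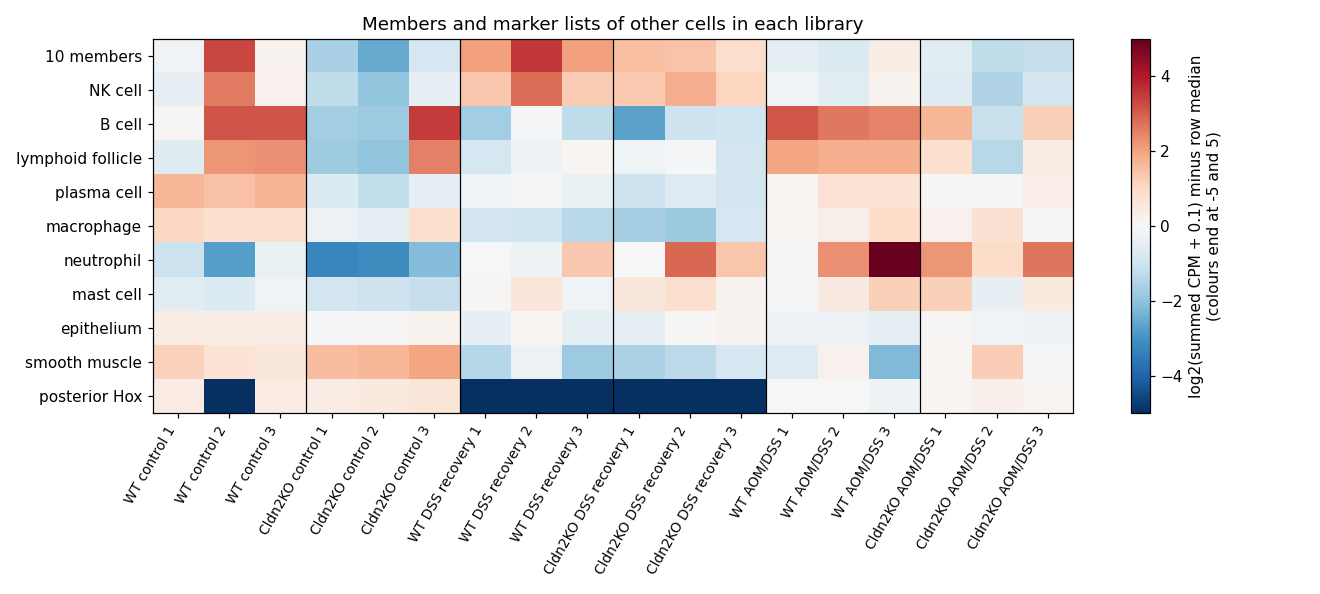
Summed CPM of the 10 members and of 10 marker lists in each library, as log2(summed CPM + 0.1) minus the median of its row (colours end at -5 and 5), with lines between groups. Members and NK markers, of which *Klrd1* is the main one, are high in WT control 2 and in recovery, posterior *Hox* genes are near 0 in the same 7 libraries, and B cell and follicle markers follow another pattern.

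The partners of the members were measured as well. *Cd247*, the zeta chain that signals with the CD3 chains, was lower in *Cldn2*KO averaged over treatments (edgeR adjusted p 0.0433) and stood at 0.826, 3.93 and 1.86 CPM in WT controls against 0.148, 0.166 and 0.915 CPM in *Cldn2*KO controls. *Cd8b1*, the beta chain that pairs with CD8 alpha on most circulating CD8 T cells, stood at 0.433, 4.98 and 0.823 CPM in WT controls and at 0.0986, 0.0 and 0.538 CPM in *Cldn2*KO controls, and was called in none of the 10 comparisons. *Itgb7*, the partner of CD103, ranged from 0.555 to 13.4 CPM and was not called either. *Cdh1*, which encodes its ligand E-cadherin, was lower in WT recovery than control (log2 fold change -0.80, 651, 439.6 and 631 against 1157, 741 and 1101 CPM). Perforin (*Prf1*), the pore protein through which granzymes enter target cells, did not pass the filter and reached at most 0.917 CPM.

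Among receptors for CCL5, *Ccr1* was lower in WT recovery than control (log2 fold change -1.47). *Ccr3* did not pass the filter, with at most 0.0717 CPM. The ligands of CD7, *Sectm1a* and *Sectm1b*, were lower in WT recovery than control (log2 fold changes -1.52 and -0.95). *Sectm1a* was lower in *Cldn2*KO recovery than control too, at 3.32, 0.928 and 5.95 CPM against 15.6, 13.9 and 12.3 CPM (log2 fold change -2.03), and *Sectm1b* was lower in WT AOM/DSS than control (log2 fold change -1.81). *Il15*, a cytokine that maintains intraepithelial lymphocytes, its receptor chain *Il15ra*, and *Tgfb1*, which induces CD103, were called in none of the 10 comparisons. *Il15* stood at 17.3, 57.8 and 17.4 CPM in WT controls, with WT control 2 again highest, and at 33.5, 50.6 and 37.0 CPM in *Cldn2*KO controls.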

How the data were processed

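Colon RNA was sequenced by the authors on an Illumina NovaSeq instrument. The study's methods name TopHat2 as aligner and the submitters' processing notes name HISAT2, and both name featureCounts from Subread (GRCm38). Versions, strand setting and the handling of multimapping reads are not given in the sources used here. The deposited values were raw counts per gene in 36 columns, 2 lanes for each of 18 libraries, which were summed (lane chi-square per degree of freedom 1.08 to 1.17, against at least 11.0 between replicates). Groups followed the genotype and treatment labels. Of 47729 genes, 47310 matched GENCODE M21 for symbols.

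Genes were filtered with filterByExpr (16937 kept, 30792 dropped), scaled with TMM and fitted with edgeR 4.0.16 (R 4.3.3, quasi-likelihood, robust, 1 mean per group over all 18 libraries, biological coefficient of variation 0.315). p-values were adjusted by Benjamini-Hochberg over all genes tested and called under 0.05. Counts of genes at an unadjusted p under 0.05 are no calls and stand without the share of all genes under it. SEs were taken from the fold change and its F statistic. The fit was also run on simulated counts with the same dispersion for every gene and no library that stood apart. Such counts do not show how it handles a library like WT control 2. DESeq2 1.42.0, limma-voom (limma 3.58.1), other scalings, no filter, fits of only the groups compared, covariates for *Hoxb13* under 10 CPM and *Xist* over 100 CPM, a replicate block and leaving out each library were alternatives. Log2 CPM for correlations used a prior count of 2. Promoter windows came from RefSeq (GRCm38.p6).

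The members, lists and tests were chosen with earlier results of these data known. Named beside the members are called list genes with the 4 largest changes per comparison, partners of the members, receptor constant regions, the 8 genes most alike (predicted genes and receptor segments left out) and library checks. The ratio of cytotoxic to CD3 genes, and *Tyrobp* and *Gpr55* where they complete a small count, were chosen after their values were seen. Some list genes are not reported here.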

Additional observations from a re-analysis of the deposited data

Results flagged for a closer look

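*Nkg7* lay on opposite sides of the controls in the AOM/DSS libraries of the genotypes. In WT all 3 AOM/DSS libraries (0.629, 0.438 and 0.804 CPM) were below all 3 controls (1.34, 8.71 and 1.21 CPM), and in *Cldn2*KO all 3 AOM/DSS libraries (0.998, 0.325 and 0.564 CPM) were above all 3 controls (0.296, 0.0555 and 0.269 CPM). The difference between the responses was 4.10 on the log2 scale (edgeR, unadjusted p 0.00227, adjusted p 0.385), so it did not pass the threshold over all genes, and neither did the *Cldn2*KO difference. Without WT control 2 the WT difference was -1.04 (edgeR adjusted p 0.319) and the interaction 2.59 (edgeR adjusted p 0.561). The *Cldn2*KO controls held 12 *Nkg7* reads in all. Between the genotypes its log2 fold change was -0.01 in AOM/DSS (SE 0.74, edgeR adjusted p 0.999) and -4.11 in controls, so the difference lay in the controls. Of all genes, 17.3% were lower in every WT AOM/DSS library and 15% were higher in every *Cldn2*KO one. The interaction was larger for *Cd7* (4.49, edgeR adjusted p 0.338) and *Ccl5* (4.55, edgeR adjusted p 0.437).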

How the results depend on the processing

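Of the members, 6 were called in *Cldn2*KO against WT controls, and the count was 2 with no filter (against 0.504% of genes called lower), 2 with the *Hoxb13* covariate (1.03%), 3 with the *Xist* covariate (0.838%), 0 with only the groups compared (0.753%), 8 with DESeq2 (3.45%) and 10 with limma-voom (8.96%). In WT AOM/DSS against control, with 3 called, it was 1 with no filter (2.16%) and 0 with the *Hoxb13* covariate (1.46%), limma-voom (9.03%) or only the groups compared (0.0447%). In *Cldn2*KO recovery against control, 7 (9.43%) became 0 with the *Hoxb13* covariate (0.449%), under which the recovery contrasts rest on WT control 2 alone. Averaged over treatments, 4 became 9 with DESeq2 (3.6%), 8 with limma-voom (6.84%), 1 with the *Xist* covariate (0.762%) and 0 with no filter (0.511%). Comparisons with 0 calls gained 9 (WT recovery against control, 23.1% of genes) and 1 (*Cldn2*KO against WT recovery, 5.75%) with limma-voom, 3 (DESeq2, 2.98%) and 2 (limma-voom, 5.73%) in the recovery interaction, and 3 (DESeq2, 0.455%) in the AOM/DSS interaction. The cause was not tested. Leaving out 1 library gave 0 to 8 in *Cldn2*KO against WT controls (with 0.132% to 1.62% of genes called), 0 to 7 in WT recovery against control (4.26% to 11.8%), 3 to 7 in *Cldn2*KO recovery against control (4.9% to 7.46%), 0 to 4 in WT AOM/DSS against control (0.733% to 7.13%), 0 to 6 on average (0.559% to 2.41%), and 0 elsewhere.

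With the *Hoxb13* covariate, log2 fold changes in *Cldn2*KO recovery against control turned to -1.87 (*Cd3d*), -1.21 (*Cd3g*), -0.29 (*Cd8a*) and -0.87 (*Itgae*), and in WT recovery against control to -0.11 (*Gzma*). These 5 were the reversals among the alternatives of the members' fold changes given with a test, where 510 values stayed on their side of the threshold, 122 lost the call and 38 gained it. Fold changes not given with a test turned too. In WT recovery against control with that covariate, *Cd3d* stood at -0.57, *Cd3g* at -0.82 and *Cd8a* at -1.21. *Gzmb* stood at -0.32, *Ccl5* at -0.88 and *Nkg7* at -0.79 there, and all of these were positive without it.

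Of the 75 list genes, 5 were called in *Cldn2*KO against WT controls (1.17% of all genes in either direction), 29 with DESeq2 (4.06%), 46 with limma-voom (15.1%), 2 with the *Hoxb13* covariate (1.14%) and 1 with only the groups compared (0.843%). The 13 of *Cldn2*KO recovery (19.4%) became 40 with limma-voom (34%), 3 with the *Xist* (11.1%) and 0 with the *Hoxb13* covariate (0.785%). The 6 averaged over treatments (1.5%) became 31 with DESeq2 (5.33%), 32 with limma-voom (11.9%) and 3 with the *Xist* covariate (0.838%). The 5 of WT recovery (22.2%) became 8 with DESeq2 (27.1%), 27 with limma-voom (48%), 2 with the *Xist* covariate (13.9%), 3 with the *Hoxb13* covariate (8.72%) and 3 with only the groups compared (11.8%). The 3 of WT AOM/DSS (10.4%) became 11 with DESeq2 (17.9%), 1 with the *Xist* covariate (7.49%) and 0 with the *Hoxb13* covariate (1.89%), no filter (3.09%) or only the groups compared (0.0447%). The 1 of *Cldn2*KO AOM/DSS (0.195%) became 24 with limma-voom (18.3%), 3 with DESeq2 (3.55%), 3 with only the groups compared (5.87%) and 0 with the *Xist* covariate (0.0295%).

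The controls share replicate numbers 1 to 3, and same-numbered libraries deviated together by weak correlations of 0.158, 0.00234 and 0.0794. Whether the numbers pair libraries is not stated, and such correlations cannot decide it. The main fit did not pair them. With a replicate block, 2 members (against 0.951% of genes) and 3 list genes (1.06% in either direction) were called in *Cldn2*KO against WT controls. Depth limits *Cldn2*KO controls most, where a member had 0 to 60 reads in a library.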
